A study of Mus musculus with 12 samples.

Results

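The 40 genes described here are members of the hypoxia response and of glycolysis, chosen by name as 2 subunits of the hypoxia-inducible factors (HIF), 3 glucose and lactate transporters, 12 glycolytic enzymes, 3 regulators of glycolytic flux and 20 HIF targets outside glycolysis. They are 40 of the 38898 genes with a transcript in the deposited tables, and all 40 were among the 17602 genes that passed the count filter, with at least 75 estimated counts in every tumor. RNA was measured in 12 bulk tumors grown from Rd76-9 cells, a murine embryonal rhabdomyosarcoma (RMS) line, injected into the flank of wild-type C57/Bl6J mice aged 8 to 12 weeks and collected 16 days later. The 3 vehicle tumors (m1 to m3) received saline and empty nanoparticles. The 3 VCR tumors (m4 to m6) received 0.25 mg/kg vincristine, a microtubule poison, and the 3 RCM1 tumors (m7 to m9) received 8 µg of the FOXM1 inhibitor RCM1 in folic acid nanoparticles. The 3 combination tumors (m10 to m12) received both agents at the same doses. The treatment label of the vehicle tumors also names the RCM1 nanoparticle, against the design text, so groups were taken from the titles. All tumors came from 1 cell line in immunocompetent hosts, and bulk RNA mixes tumor and host cells. The labels number the tumors but name no animals, so the p-values measure the spread between these tumors.

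HIF is the transcription factor through which cells respond to low oxygen. Its alpha subunits, HIF-1α (Hif1a) and HIF-2α (Epas1), are hydroxylated by the EGLN prolyl hydroxylases when oxygen is present and are then degraded through VHL, so their activity is set mainly at the protein level. When oxygen falls they pair with ARNT and bind the hypoxia response element, whose core reads CGTG after a purine, and the targets include most glycolytic enzymes, the glucose transporter GLUT1, VEGFA and the EGLN enzymes themselves. In solid tumors these transcripts are commonly read together as a hypoxia signature, and glycolysis can also run at a high level without low oxygen.

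Promoter sequence was available for 33 of the 40 members (RefSeq, GRCm38.p6), and of several starts in the promoter table the most upstream was used. For 14 of the 33, Kdm3a, Ak4, Pdk1, P4ha1 and Ldha among them, this start lies inside the gene's RefSeq span, which reaches further upstream. The core was searched on both strands in the 250 bases before the start, once as ACGTG and once, with a leading guanine, as GCGTG. At least 1 match was present in 27 of the 33 windows (81.8%), compared with 51.5% of the 13517 tested genes with a window and 38.6% of all 27025 windows. The median GC content was 62.8% in the members, 58.4% in the tested genes and 52.0% in all windows, and its part in the share was not tested. Matches were found for 9 of 12 glycolytic enzymes and 12 of 15 HIF targets outside glycolysis. Slc2a3, Epas1, Ndrg1, Plod2, Bhlhe40, Stc1 and Angptl4 had no window. The sequences below are those of the members that were called lower after VCR and carry a match, followed by Pgk1, Ldha and Car9, which are classical HIF targets. Each is written 5′ to 3′ on the gene's strand with the core in capitals, so that a match on the other strand begins with CAC. For Pfkl and Pgk1 the last 180 bases before the start are shown. For the others an annotated exon or the gene's own span reaches into that stretch, so only each core is given with 12 bases on either side, or fewer where the start comes first.
Kdm3a, chr6:71632928-71632956, minus strand: ccgggaggctgtGCGTGtcttgtgagaga
Ak4, chr4:101419203-101419231, plus strand: cctggctccggaCACGCcgggaggggaga
Ak4, chr4:101419241-101419269, plus strand: gcggcggcggtaGCGTGgagccggctccc
Pdk1, chr2:71873134-71873162, plus strand: ccgcctacatggGCGTGtctttaaccagg
Pfkl, chr10:78009808-78009987, minus strand: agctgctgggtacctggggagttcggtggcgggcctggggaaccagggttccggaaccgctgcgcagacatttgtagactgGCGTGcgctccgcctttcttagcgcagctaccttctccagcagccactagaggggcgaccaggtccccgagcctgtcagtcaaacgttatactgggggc
P4ha1, chr10:59323121-59323149, plus strand: acgggaacggtgGCGTGgcaggagctctg
P4ha1, chr10:59323158-59323186, plus strand: cactgcgtcctcGCGTGggccagcctagg
P4ha1, chr10:59323268-59323295, plus strand: tgtgacagagcgCACGTagcgagggctg
Pgk1, chrX:106186920-106187099, plus strand: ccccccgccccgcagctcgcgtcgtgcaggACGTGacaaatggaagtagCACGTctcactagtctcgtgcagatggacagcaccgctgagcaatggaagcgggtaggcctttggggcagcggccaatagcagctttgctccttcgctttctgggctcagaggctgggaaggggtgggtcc
Ldha, chr7:46845647-46845676, plus strand: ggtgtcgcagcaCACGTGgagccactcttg
Ldha, chr7:46845744-46845773, plus strand: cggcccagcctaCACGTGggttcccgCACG
Car9, chr4:43506996-43507024, plus strand: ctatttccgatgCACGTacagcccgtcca

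Kdm3a carried its match 27 bases before the start, Pdk1 at 78 and Pfkl at 99. Ak4 had matches at 74 and 36 bases, and P4ha1 at 163, 126 and 16. In Ldha the palindrome CACGTG occurred at 145 and again at 48 bases, where both strands read as the core, and another match lay at 34, which begins at the end of the second Ldha line. Of the genes shown, only Ldha had first bases after its start that were not found in an annotated transcript. The Ldha distances rest on that start. Pgk1 had matches at 150 and 131, and Car9 at 18. Vegfa, the sixth member called lower, had no match in this window. A match is a description of the letters only, and binding was not measured.

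The total of estimated counts was 29342195 to 32108055 per tumor. Compared per length, in the deposited TPM (transcript abundance corrected for length), 7 of the 12 glycolytic enzymes were the most abundant members, whereas Aldoc was the lowest of all 40 at 2.07 ± 0.309 TPM (SD over 12 tumors) and Pfkp, Hk2 and Hk1 ranked 31, 30 and 19. The mean over 12 tumors was 4571 ± 579 TPM (SD) for Gapdh, 1823 ± 262 for Eno1, 1201 ± 164 for Ldha and 1085 ± 188 for Pgk1. The highest HIF target outside glycolysis was Vegfa at 136 ± 27.3 TPM, followed by Bnip3 at 114 ± 42.1. Summed over the list, the 12 enzymes reached 11555 ± 1793 TPM in vehicle tumors and 10377 ± 355 after VCR, and the 20 HIF targets reached 1297 ± 267 and 841 ± 99.1. Much of the enzyme sum was Gapdh, and without it the sums were 7030 ± 1162 and 5682 ± 270 TPM. The sums of all 12 enzymes overlapped, at 10018 to 13525 TPM in vehicle tumors and 9978 to 10655 after VCR. The near copy Eno1b was listed at 1.80 to 5.26 TPM, against 1528 to 2489 for Eno1. Pfkp shares 748 exon bases with Pitrm1 on the opposite strand, Ankrd37 shares 57 with Ufsp2 and Tpi1 shares 34 with Spsb2. The library kit was a stranded one but the libraries were described as non-stranded, so reads in those bases cannot be assigned with certainty. Car9 lies opposite Tpm2 and Arhgef39 and shares no exon bases with them.

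Myf5 (48.9 to 69.9 CPM, counts scaled to library size) and Cdh15 (125 to 202 CPM), markers of myogenic cells, were detected in every tumor. Myod1 and Myog were at or below 0.0617 CPM in the vehicle tumors. A list of 20 skeletal muscle fibre markers summed to 48.8 to 174 CPM in vehicle tumors, 1834 to 13326 after VCR, 172 to 20473 after RCM1 and 502 to 4980 in the combination, with m5 and m9 the highest. Endothelial markers (10 genes) summed to 161 to 226 CPM in vehicle tumors, 239 to 327 after VCR, 234 to 286 after RCM1 and 234 to 254 in the combination. Leukocyte markers summed to 756 to 954 CPM, adipocyte markers to 32.2 to 200.4 and proliferation markers to 1627 to 2204 over all tumors. Erythroid markers summed to 11.6 to 307 CPM in vehicle tumors, 6.37 to 409 after VCR, 85.3 to 332 after RCM1 and 6.70 to 18.8 in the combination. Keratinocyte markers were at or below 0.504 CPM except Krt10 at 4.87 to 6.22. In bulk tumors, fewer cells of a type and less RNA per cell cannot be told apart.

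The first question was how far the members already differed among tumors that received no drug. The vehicle tumors spread widely. Car9, which encodes the membrane carbonic anhydrase IX and is among the most oxygen-responsive transcripts, measured 43.7, 87.4 and 139 CPM in m1, m2 and m3, a 3.18-fold range. Ddit4, an inhibitor of mTORC1 signalling, spanned 2.49-fold, Ankrd37 spanned 2.25-fold and Slc2a1, the gene of GLUT1, spanned 2.21-fold. Kdm3a, a histone H3 lysine demethylase, spanned 1.12-fold and Plod2, a collagen lysyl hydroxylase, 1.14-fold. Tumor m3 was the highest vehicle tumor for 34 of the 40 members, including 18 of 20 HIF targets and 11 of 12 enzymes, whereas it was the highest for 35.6% of all genes tested. Tumor m1 was the lowest for 27. All comparisons with vehicle used these 3 tumors.

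**Figure D1:**
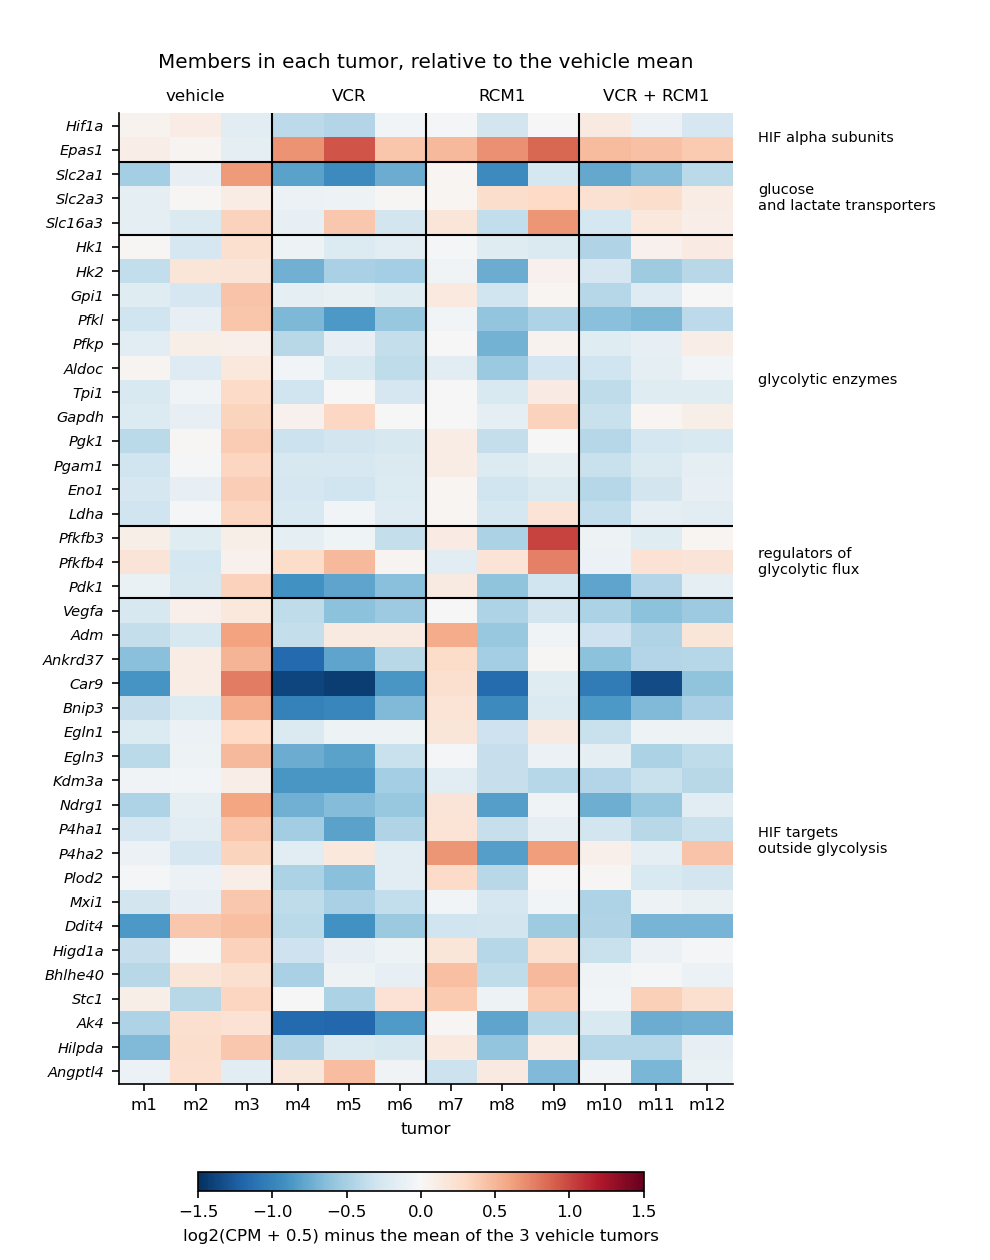
Heat map of the 40 members (rows, grouped by role) in the 12 tumors (columns, grouped by treatment). Color gives log2(CPM + 0.5) minus the mean of the 3 vehicle tumors, from -1.5 (blue) to 1.5 (red); values beyond the scale take its end color. Tumor m3 is red for most members, the VCR tumors m4 and m5 are blue for most HIF targets, and Epas1 is red in all 9 treated tumors.

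VCR gave the clearest difference. Of the 40 members 7 passed an adjusted p of 0.1 in edgeR's quasi-likelihood test, 6 lower and 1 higher, where 5.55% of all 17602 genes passed (2.75% lower and 2.80% higher). The fitted log2 fold change was below 0 for 35 of the 40, against 49.7% of all genes, and its median was -0.28 against 0.00 for all genes. An unadjusted p under 0.05 was reached by 17 members (42.5%) and by 22.1% of all genes. Without regard to the model, 12 members were lower in every VCR tumor than in any vehicle tumor, where 10.9% of all genes were, and 1 was higher in every VCR tumor, where 13.5% of all genes were. The 12 were Hk2, Pfkl, Slc2a1, Pdk1, Vegfa, Bnip3, Kdm3a, Ndrg1, P4ha1, Plod2, Mxi1 and Ak4.

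Among the HIF subunits, Epas1 moved opposite to the targets. Epas1 measured 17.0, 16.3 and 14.3 CPM in vehicle tumors, 25.6, 30.9 and 21.3 after VCR, 22.3, 25.7 and 29.3 after RCM1 and 22.2, 21.7 and 20.9 in the combination. Every treated tumor was above every vehicle tumor. The log2 fold change after VCR was 0.71 (SE 0.14, edgeR adjusted p = 0.0676). HIF-2α is abundant in endothelial cells, and the endothelial markers moved with it: all 10 had a positive log2 fold change after VCR, with a median of 0.60, and Esam, Egfl7 and Tie1 passed the test. All 10 markers were also positive after RCM1 and in the combination, with medians of 0.52 and 0.47 and 0 called. Epas1 was highest in m5 and m9, the tumors with the highest muscle fibre sums. The part of endothelial cells or of muscle fibres in the Epas1 result was not tested. Hif1a measured 105, 110.0 and 90.9 CPM in vehicle tumors, 77.3, 74.9 and 99.2 after VCR, 100.5, 84.1 and 102 after RCM1 and 112, 95.8 and 85.2 in the combination. The groups overlapped, and its fold change after VCR of -0.28 (SE 0.13) did not pass (edgeR adjusted p = 0.236).

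Kdm3a had the smallest adjusted p of the members. It measured 114, 115 and 127 CPM in vehicle tumors, 64.2, 64.3 and 82.9 after VCR, 106, 92.9 and 87.8 after RCM1 and 87.0, 93.8 and 88.6 in the combination. The vehicle tumors lay close together, the VCR tumors were the lowest, and the other treated tumors lay between them. The log2 fold change after VCR was -0.75 (SE 0.11, edgeR adjusted p = 0.0486), and Kdm3a was the only member below 0.05. Kdm3a spans chr6:71588970-71632990 (GRCm38).

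Ak4, a mitochondrial adenylate kinase, measured 35.3, 57.8 and 56.6 CPM in vehicle tumors and 21.4, 21.3 and 26.9 after VCR. After RCM1 it measured 49.3, 28.0 and 35.9 CPM, and in the combination 41.4, 28.98 and 29.4. The VCR tumors were below all others, and the log2 fold change was -1.10 (SE 0.24, edgeR adjusted p = 0.0712). Vegfa, the angiogenic ligand, measured 273, 339 and 359.6 CPM in vehicle tumors and 247, 210.5 and 219.5 after VCR. It measured 319, 234 and 267 CPM after RCM1 and 231, 210.5 and 219.6 in the combination, so that both VCR-containing groups lay below every vehicle tumor. Its log2 fold change after VCR was -0.52 (SE 0.13, edgeR adjusted p = 0.0801). P4ha1, a subunit of collagen prolyl 4-hydroxylase, measured 173, 183 and 275 CPM in vehicle tumors and 143, 118 and 151 after VCR. The VCR tumors were again below the vehicle range, with a log2 fold change of -0.61 (SE 0.18, edgeR adjusted p = 0.0992), just inside the threshold. These genes lie at chr4:101416478-101467771 (Ak4), chr17:46016993-46032377 (Vegfa) and chr10:59323197-59373304 (P4ha1).

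Among the members that act in glycolysis, only Pfkl and Pdk1 were called in edgeR. Pfkl, the liver-type phosphofructokinase of the committed step, measured 225, 255 and 371 CPM in vehicle tumors, 173, 152 and 186 after VCR, 269.5, 184 and 201 after RCM1 and 179.9, 173 and 211 in the combination. The VCR tumors were below all vehicle tumors (log2 fold change -0.73, SE 0.19, edgeR adjusted p = 0.0850). Pdk1, which limits conversion of pyruvate to acetyl-CoA by phosphorylating pyruvate dehydrogenase, measured 72.3, 65.5 and 98.7 CPM in vehicle tumors and 41.0, 44.6 and 50.3 after VCR. After RCM1 it measured 85.4, 50.8 and 63.1 CPM and in the combination 44.5, 57.2 and 70.1, which overlapped vehicle. Its log2 fold change after VCR was -0.80 (SE 0.21, edgeR adjusted p = 0.0870). Pfkl spans chr10:77986947-78009807 and Pdk1 chr2:71873215-71903858.

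**Figure D2:**
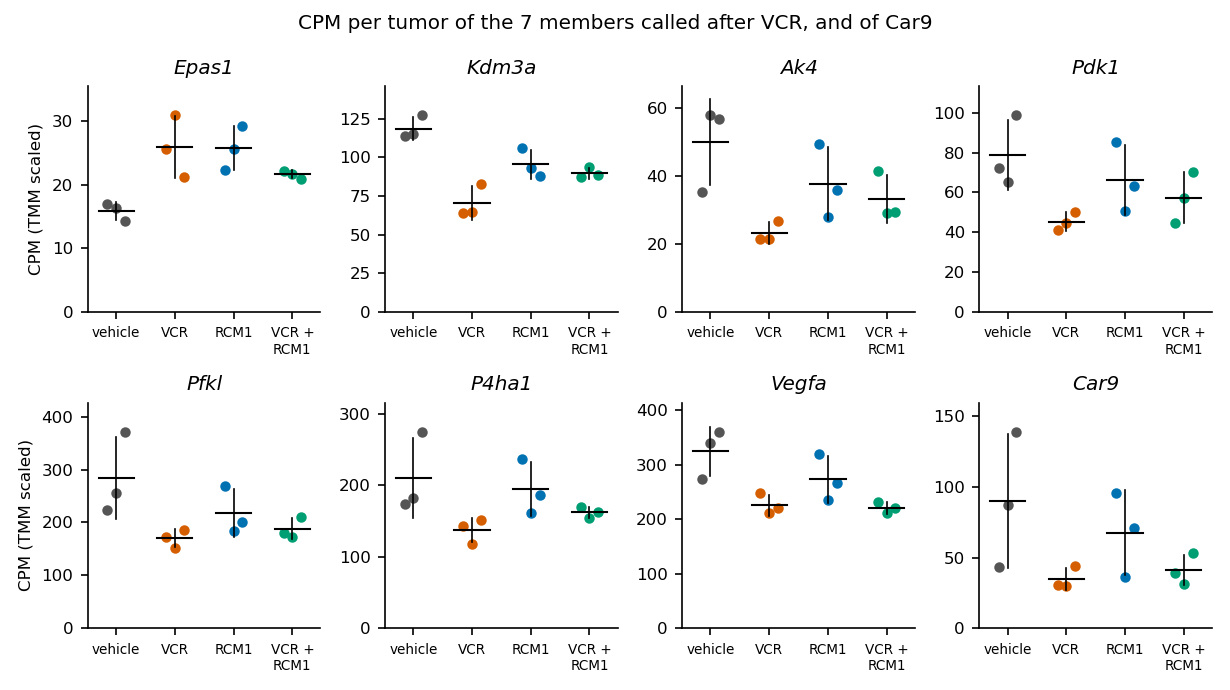
CPM per tumor (points) of the 7 members called after VCR and of Car9, by treatment group. Horizontal lines are means of 3 tumors and vertical lines ± 1 SD. Epas1 is higher in each treated tumor than in vehicle tumors, Kdm3a has the tightest vehicle values (114 to 127 CPM), and the vehicle values of Car9 run from 43.7 to 139 CPM.

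The largest fold change belonged to a member that was not called. Car9 measured 30.9, 29.8 and 43.8 CPM after VCR, 95.8, 36.1 and 71.1 after RCM1 and 38.9, 31.7 and 53.0 in the combination, against 43.7 to 139 CPM in vehicle tumors. Its log2 fold change after VCR was -1.37 (SE 0.41, edgeR adjusted p = 0.103), and the lowest vehicle tumor lay within the VCR range. Slc2a1 measured 160.1, 209 and 354 CPM in vehicle tumors, 131, 117 and 136 after VCR, 232, 118 and 189.9 after RCM1 and 134, 145 and 173 in the combination. The VCR tumors lay below the vehicle range and its log2 fold change was -0.92 (SE 0.28, edgeR adjusted p = 0.104). The log2 fold change after VCR was -0.05 for Slc2a3 (GLUT3, SE 0.10) and 0.01 for Slc16a3, the lactate exporter MCT4 (SE 0.26).

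Hk2, which traps glucose as its phosphate, measured 74.2, 109 and 111 CPM in vehicle tumors, 58.3, 68.5 and 67.5 after VCR, 93.0, 57.1 and 101 after RCM1 and 80.8, 66.6 and 72.1 in the combination. The VCR tumors were lower than all vehicle tumors, with a log2 fold change of -0.60 (SE 0.20, edgeR adjusted p = 0.126). Pgk1, an ATP-producing step of the pathway, measured 962, 1282 and 1657 CPM in vehicle tumors, 1013, 1049.5 and 1070.3 after VCR, 1372.5, 989 and 1262.5 after RCM1 and 942, 1055 and 1087 in the combination. The lowest vehicle tumor was below every VCR tumor. Ldha, which reduces pyruvate to lactate, measured 981, 1176 and 1509.7 CPM in vehicle tumors, 1026, 1172.5 and 1053 after VCR, 1226, 1002 and 1382 after RCM1 and 933, 1086 and 1076 in the combination. Gapdh measured 2945, 3137 and 4278 CPM in vehicle tumors, 3556, 4227 and 3385 after VCR, 3406, 3077.5 and 4330.2 after RCM1 and 2713, 3489 and 3614 in the combination. Ldha and Gapdh overlapped between all groups. Of the 12 listed enzymes, only Gapdh had a positive log2 fold change after VCR (0.11, SE 0.17, edgeR adjusted p = 0.751). The list leaves out Aldoa and Pkm, at 1645 ± 620 and 1819 ± 135 TPM (SD over 12 tumors). Their log2 fold changes after VCR were 0.33 (SE 0.36) and -0.06 (SE 0.12).

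Other classical targets lay between these cases. Egln3, an oxygen sensor induced by its own substrate, measured 90.8, 114 and 169 CPM in vehicle tumors, 72.1, 68.8 and 95.9 after VCR, 119, 94.9 and 113 after RCM1 and 109, 86.8 and 92.4 in the combination. Bnip3, a mitophagy receptor, measured 117, 129 and 218 CPM in vehicle tumors, 73.5, 75.6 and 93.7 after VCR, 171, 76.5 and 128 after RCM1 and 81.6, 93.8 and 106 in the combination. Ndrg1 measured 151, 189.7 and 313 CPM in vehicle tumors, 125, 132 and 139.5 after VCR, 238, 117 and 201 after RCM1 and 125, 141 and 184 in the combination. Bnip3 and Ndrg1 did not overlap between VCR and vehicle tumors, yet none of these 3 passed (edgeR adjusted p = 0.108, 0.103 and 0.172). Angptl4, a secreted inhibitor of lipoprotein lipase, differed in sign. It measured 29.6, 37.3 and 27.9 CPM in vehicle tumors, 35.3, 43.3 and 30.1 after VCR, 24.9, 34.4 and 19.6 after RCM1 and 30.5, 19.3 and 29.3 in the combination, with overlapping groups, and was the only HIF target with a positive fold change after VCR (0.20, SE 0.23, edgeR adjusted p = 0.649). Adm, a vasodilator peptide, was low throughout, at 2.96, 3.26 and 6.25 CPM in vehicle tumors, 2.98, 4.40 and 4.39 after VCR, 6.02, 2.49 and 3.78 after RCM1 and 3.08, 2.75 and 4.55 in the combination.

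The remaining members were not called after VCR. The log2 fold changes of the 7 other enzymes lay between -0.30 (Pfkp) and -0.16 (Hk1). That of Ddit4 was -0.73 (SE 0.27, edgeR adjusted p = 0.154), and those of the 9 other HIF targets lay between -0.86 (Ankrd37) and -0.07 (P4ha2). Pfkfb3, which makes the phosphofructokinase activator fructose 2,6-bisphosphate, was picked after its values were seen. It measured 56.5 CPM in m9, the tumor with the highest muscle fibre sum, and 19.9 to 30.4 in the 11 other tumors.

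Setting the lists side by side, the HIF targets outside glycolysis had a median log2 fold change of -0.48 after VCR, with 19 of 20 below 0, 4 called lower and 8 not overlapping vehicle. The glycolytic enzymes had a median of -0.25, with 11 of 12 below 0, 1 called lower and 2 not overlapping vehicle. Of all 17602 genes, 49.7% had a fold change below 0 and 2.75% were called lower. In every VCR tumor 10.9% of all genes were lower than in any vehicle tumor. The VCR call count rested on single tumors. It fell to 0 members without m2, m4, m5 or m11, when at most 1 of all genes was called, and reached 13 without m6. With m5 and m9 left out, 2 members passed, Epas1 and Kdm3a. For the settings without m6 and without m5 and m9 only member counts are given. These shifts need not be particular to the members. DESeq2 on all 12 tumors called 16 members after VCR, 15 of them lower, where it called 14.1% of the genes with an adjusted p.

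RCM1 alone gave no calls. No member and no gene (0%) passed an adjusted p of 0.1 in edgeR, and 2 members had an unadjusted p under 0.05, Epas1 and Kdm3a, compared with 9.78% of all genes. The 3 largest fold changes were 0.70 for Epas1 (SE 0.14, edgeR adjusted p = 0.419), -0.48 for Ddit4 (SE 0.27, adjusted p = 0.596) and -0.42 for Slc2a1 (SE 0.28, adjusted p = 0.663). Ddit4 measured 40.1, 97.2 and 99.7 CPM in vehicle tumors, 54.96, 38.6 and 49.4 after VCR, 59.4, 60.1 and 50.2 after RCM1 and 53.4, 45.0 and 44.7 in the combination, so that m1 was as low as the treated tumors and the groups overlapped. The fold change was below 0 for 29 of 40 members, with a median of -0.11. Only Kdm3a was lower in every RCM1 tumor than in any vehicle tumor (2.5%, against 5.86% of all genes), and only Epas1 was higher (2.5%, against 5.56%). DESeq2 on all tumors called 1 member, Epas1 (0.70, adjusted p = 0.00355), and 1.50% of all genes, and limma-voom called 0. The RCM1 tumors differed among themselves, m7 being the highest of the 3 for 24 members and m8 the lowest for 33.

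In the combination, no member and no gene (0%) passed in edgeR. An unadjusted p under 0.05 was reached by 9 members (22.5%) and 7.31% of all genes, and 35 of 40 fold changes were below 0, with a median of -0.25. The largest were -1.13 for Car9 (SE 0.41, edgeR adjusted p = 0.666), -0.73 for Ddit4 (SE 0.27, adjusted p = 0.666) and -0.72 for Bnip3 (SE 0.28, adjusted p = 0.675). Pfkl, Vegfa, Bnip3, Kdm3a and P4ha1 were lower in every combination tumor than in any vehicle tumor (12.5%, against 5.53% of all genes) and Epas1 was higher in every one (2.5%, against 7.10%). DESeq2 on all tumors called 1 member, Vegfa (-0.56, adjusted p = 0.0170), and 0.370% of all genes, and limma-voom called 0. The HIF targets had a median log2 fold change of -0.38, with 18 of 20 below 0, and the glycolytic enzymes -0.25, with 12 of 12 below 0. All 3 comparisons with vehicle share the tumors m1 to m3, so their directions are not independent. Without m3 the fold change was below 0 for 28 of 40 members after VCR, 13 after RCM1 and 28 in the combination.

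**Figure D3:**
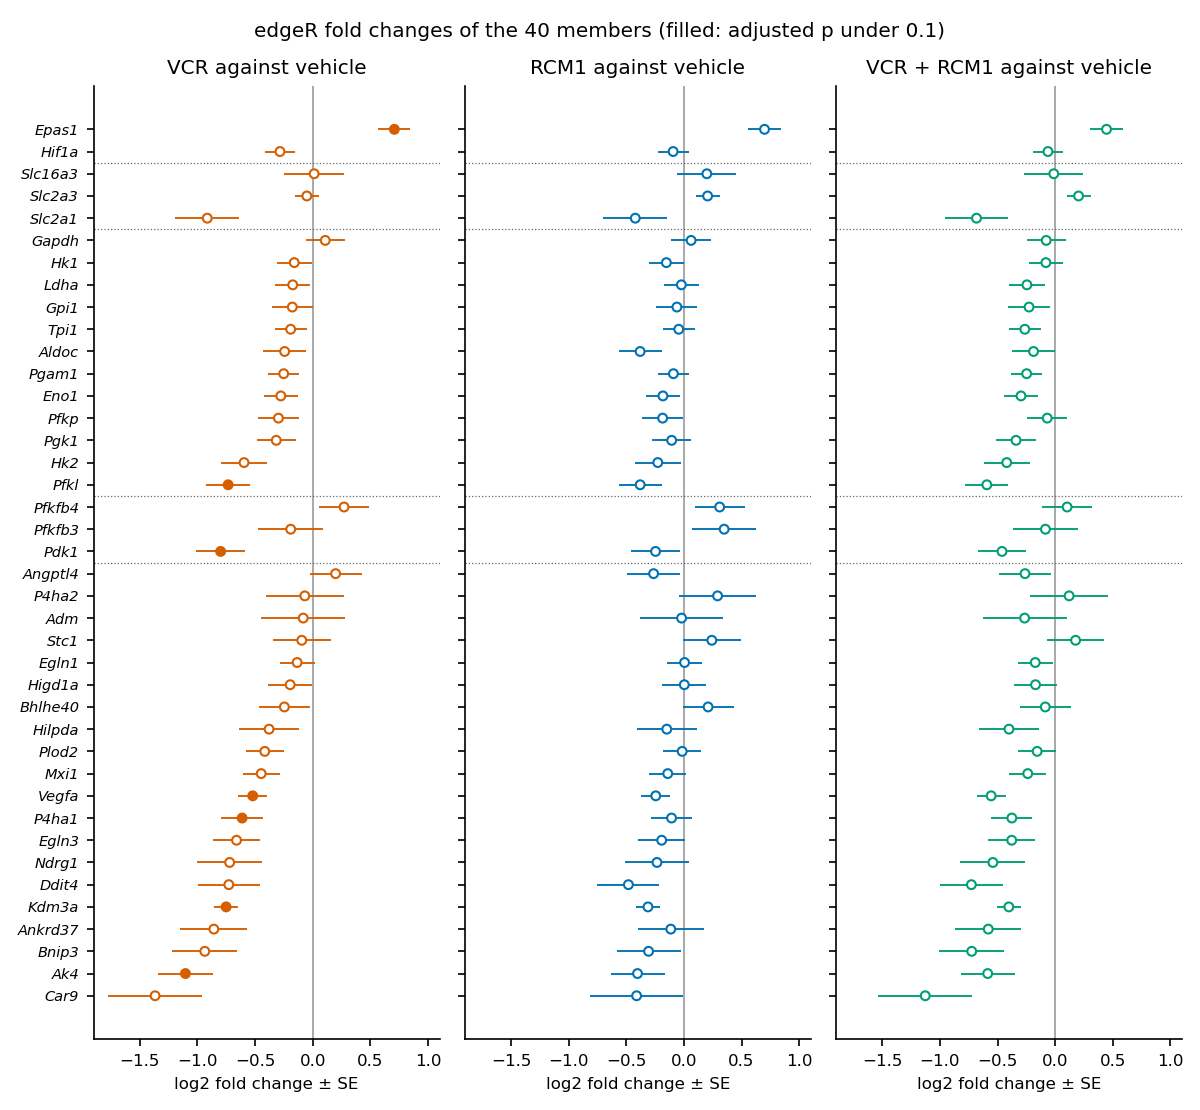
Log2 fold change ± SE (edgeR) of the 40 members in each treated group against the same 3 vehicle tumors, grouped by role from HIF subunits (top) to HIF targets outside glycolysis (bottom). Filled points passed an adjusted p of 0.1; there are 7 after VCR, 0 after RCM1 and 0 in the combination, and most points lie left of 0 in each panel.

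No member was called between the combination and either single agent. Against VCR, 0 members and 0% of genes passed in edgeR, with 3 members (7.5%) and 5.26% of all genes at an unadjusted p under 0.05 and fold changes from -0.46 (Angptl4) to 0.52 (Ak4, SE 0.24, adjusted p = 0.855). Against RCM1, 0 members and 0% of genes passed, with 1 member (2.5%) and 2.07% of all genes at an unadjusted p under 0.05 and fold changes from -0.72 (Car9) to 0.19 (Aldoc). The interaction of both drugs, the departure from additive effects on the log scale, was called in 0 members and 0% of genes, with 3 members (7.5%) and 13.8% of all genes at an unadjusted p under 0.05. It ran from -0.96 for Epas1 (SE 0.20, edgeR adjusted p = 0.293) to 0.92 for Ak4 (SE 0.33, adjusted p = 0.297). In these 3 comparisons limma-voom called 0 members, and DESeq2 on all tumors called 0, 0 and 2, the interaction of Epas1 (-0.95, adjusted p = 0.00454) and of Kdm3a (0.67, adjusted p = 0.0172). Among the 16797 genes with an adjusted p, DESeq2 called a positive interaction in 191 and a negative one in 276. Epas1 and Kdm3a each had fold changes after either drug alone in the same direction, and the combination lay nearer to vehicle than the sum of both.

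To compare HIF targets with glycolytic enzymes within a tumor, the level of each list was taken as the mean of log2(CPM + 0.5) over its genes, relative to the vehicle mean. No test was run on these levels. The HIF-target level was -0.35, -0.01 and 0.36 in vehicle tumors, -0.55, -0.52 and -0.33 after VCR, 0.16, -0.49 and -0.05 after RCM1 and -0.36, -0.41 and -0.24 in the combination. The glycolytic-enzyme level was -0.22, -0.07 and 0.30 in vehicle tumors, -0.28, -0.21 and -0.27 after VCR, 0.01, -0.38 and -0.04 after RCM1 and -0.38, -0.22 and -0.11 in the combination. The treated tumors m4, m5, m8, m10 and m11 were below the lowest vehicle tumor in HIF targets, and m4, m6, m8 and m10 in enzymes. Tumor m3 was the highest of the 12 for both lists, and every treated group overlapped vehicle in both. The group means were -0.47 ± 0.12 (SD, n = 3) after VCR, -0.13 ± 0.33 after RCM1 and -0.33 ± 0.09 in the combination for HIF targets, and -0.25 ± 0.04, -0.14 ± 0.21 and -0.24 ± 0.13 for the enzymes. The vehicle SD was 0.35 for HIF targets and 0.27 for the enzymes.

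Both levels ordered the tumors alike. Over the 12 tumors the Pearson correlation was 0.91 and the Spearman correlation 0.80, and with the group means removed Pearson's r was 0.90. Both levels come from the same libraries, so these values are a description, and the choice of zero does not change them. Tumor m3 had the highest value of the 12 for 14 of the 20 HIF targets and 10 of the 12 enzymes. The HIF-target level minus the enzyme level was -0.27, -0.31 and -0.06 in the VCR tumors, on average -0.21 ± 0.13 (SD, n = 3). In vehicle tumors this difference was -0.13, 0.06 and 0.06, after RCM1 0.14, -0.10 and -0.01 and in the combination 0.02, -0.19 and -0.12. The lowest values of the 12 were those of m4 and m5, and m6 lay within the range of the vehicle tumors.

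**Figure D4:**
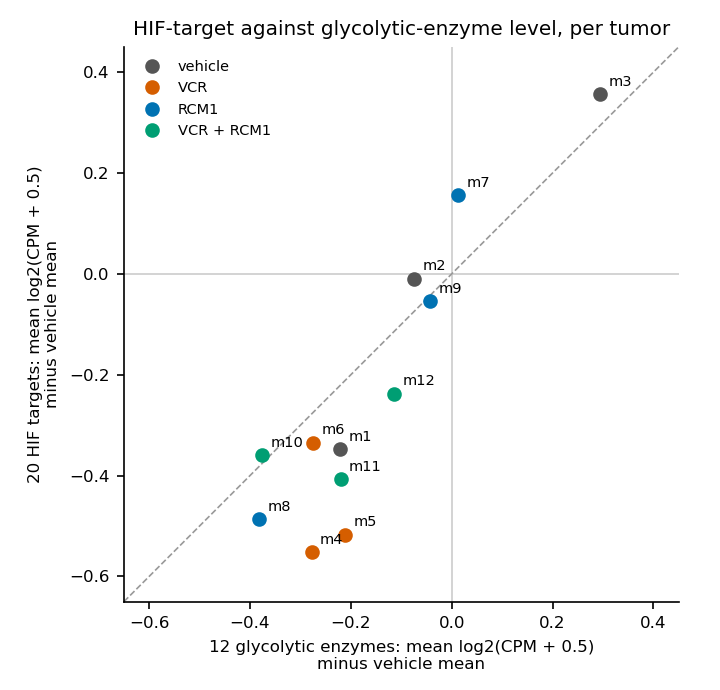
Mean log2(CPM + 0.5) of the 20 HIF targets (vertical axis) against that of the 12 glycolytic enzymes (horizontal axis), each relative to the vehicle mean, with 1 point per tumor and color for treatment. The dashed line marks equal values. Tumors m4 and m5 lie farthest below the line, at HIF-target levels of -0.55 and -0.52, and m3 stands apart at 0.36.

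Related genes outside the 40 were examined as 2 further lists. Of 20 other HIF pathway genes, 19 were tested and 2 were called after VCR, where 5.55% of all genes were. Tfrc, the transferrin receptor, was lower (log2 fold change -0.88, SE 0.24, edgeR adjusted p = 0.0920), and Ndufa4l2, a mitochondrial protein induced by HIF-1, was higher (log2 fold change 1.20, SE 0.32, adjusted p = 0.0870). Ndufa4l2 measured 2.25, 1.38 and 3.06 CPM in vehicle tumors and 5.30, 6.02 and 4.06 after VCR. The list's median was -0.11, and Epo was at or below 0.0315 CPM in all tumors. After RCM1 and in the combination 0 of the 19 were called in edgeR, with medians of -0.02 and -0.06. An unadjusted p under 0.05 was reached by 1 gene after RCM1 (5.26%, against 9.78% of all genes) and by 3 in the combination (15.8%, against 7.31%).

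The other glycolysis and lactate genes had fold changes mostly of the opposite sign to the 12 enzymes. Of 24 genes, 19 were tested, 14 of the 19 had a positive fold change after VCR with a median of 0.47, and 1 was called, near the 5.55% of all genes. It was Fbp2, the muscle fructose-bisphosphatase. An unadjusted p under 0.05 was reached by 11 genes after VCR (57.9%, against 22.1% of all genes). In every VCR tumor 9 genes were higher than in any vehicle tumor (47.4%, against 13.5%), and 1 was lower (5.26%, against 10.9%). Fbp2 measured 0.0617, 0 and 0 CPM in vehicle tumors, 1.94, 10.4 and 1.17 after VCR, 0.0993, 0.223 and 8.65 after RCM1 and 1.31, 3.23 and 0.384 in the combination. In the RCM1 and combination tumors the list's medians were 0.38 and 0.14, with 0 called in edgeR. An unadjusted p under 0.05 was reached by 6 genes after RCM1 (31.6%, against 9.78% of all genes) and by 2 in the combination (10.5%, against 7.31%). Isoforms of adult skeletal muscle were among these genes, and Pfkm, Pgam2, Eno3 and Slc2a4 were picked after their values were seen. Pfkm measured 31.2 to 39.9 CPM in vehicle tumors, 251 in m5 and 277 in m9, and Pgam2 measured 1.38 to 1.92, 105 and 159.6. Eno3 measured 257 to 282 CPM in vehicle tumors, 708 in m5 and 786 in m9, and Slc2a4 (GLUT4) measured 0.302 to 0.840, 22.8 and 25.8. The highest values stood in the 2 tumors with the highest muscle fibre sums, and the member isoforms of the same steps did not share this order, Pfkl being 152 CPM in m5 and 201 in m9. Gapdh measured 4227 and 4330.2 CPM in m5 and m9, but also 4278 in m3, whose muscle fibre sum was the lowest of the 12 tumors at 48.8 CPM. Ldha measured 1172.5 and 1382 CPM in m5 and m9, below the 1509.7 in m3. The part of muscle fibres in the values of the members was not tested.

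**Figure D5:**
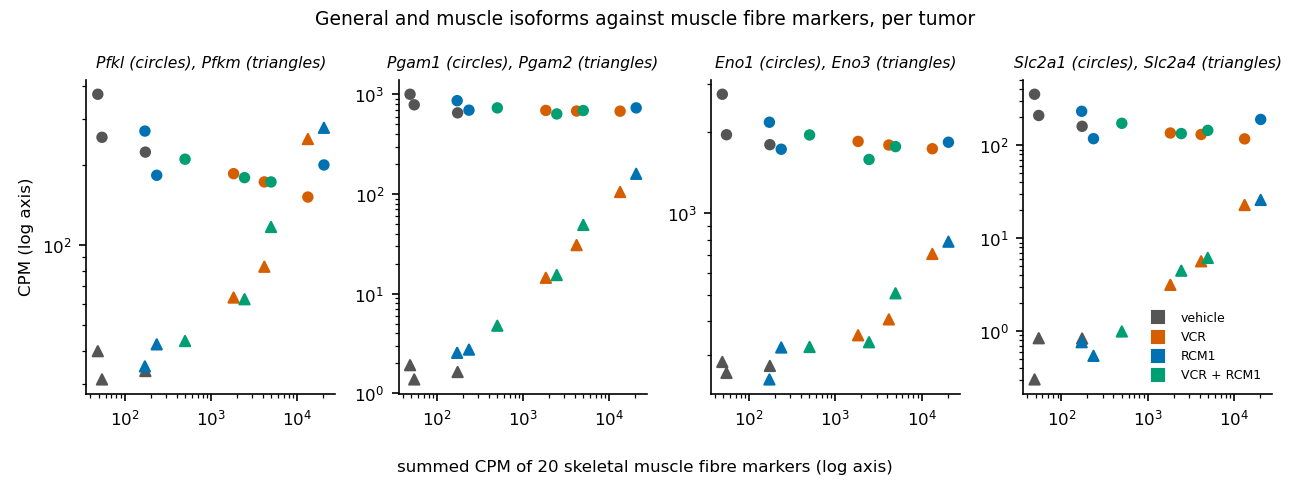
CPM (log axis) of 4 general isoforms (circles) and their skeletal muscle counterparts (triangles) against the summed CPM of 20 muscle fibre markers (log axis), with 1 point per tumor and color for treatment. The muscle isoforms rise with the fibre markers, Pgam2 from 1.38 to 159.6 CPM, whereas Pfkl, Pgam1, Eno1 and Slc2a1 do not.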

How the data were processed

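The authors deposited 1 kallisto table per tumor, mapped to GRCm38 RefSeq transcripts, with estimated counts and TPM per transcript; versions are not given in the sources used here. RNA was poly-A enriched with a TruSeq Stranded mRNA kit that the labels call non-stranded. Here estimated counts and deposited TPM were summed per gene over the transcripts (all 120299 matched a gene), and counts were rounded. The 3 tumors per group were compared in 1 edgeR 4.0.16 quasi-likelihood model over all 12 tumors. Settings were TMM scaling, filterByExpr with a minimum count of 10, Benjamini-Hochberg adjustment over 17602 genes and a threshold of 0.1. The model was also run on simulated counts with known fold changes. Those counts held no shifts shared by many genes of 1 tumor, so the run cannot show how such shifts affect the calls. CPM are TMM scaled. DESeq2 1.42.0 and limma 3.58.1 were alternatives, TPM being tested as log2(TPM + 0.1). Members past the threshold after each treatment are named with fold changes, or the 3 largest where fewer than 3 passed. CPM of 14 classical members are printed in any case. The members and lists were chosen with earlier results of these data known.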

Additional observations from a re-analysis of the deposited data

How the results depend on the processing

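After VCR the count of members past the threshold was 7 and became 16 with DESeq2 on all tumors, 15 with DESeq2 on the compared groups, 1 with limma on log2(TPM + 0.1), 1 at an adjusted p of 0.05 and 2 with m5 and m9 left out. Leaving out 1 tumor gave 0 to 13. It gave 0 without m2, m4, m5 or m11, 3 without m3 or m12, 11 without m8 or m9 and 13 without m6. Kdm3a passed in 16 of 20 alternatives, Epas1 in 15, Ak4 in 14, Pfkl and Vegfa in 12, Pdk1 in 11 and P4ha1 in 8, and none changed direction. After RCM1 the count was 0 and became 1 with either DESeq2 fit. In the combination it was 0 and became 1 with DESeq2 on all tumors and 5 with DESeq2 on the compared groups. The interaction was called in 0 members and in 2 with DESeq2 on all tumors. Leaving out 1 tumor kept 0 in these comparisons. Of the genes with an adjusted p, DESeq2 on all tumors called 14.1% after VCR, 1.50% after RCM1 and 0.370% in the combination. For the interaction it called 191 positive and 276 negative of 16797. For the other settings only member counts are given, and a change in them need not be particular to the members. The HIF-target level against vehicle ranged from -0.64 to -0.29 after VCR and from -0.51 to -0.16 in the combination when 1 tumor was left out. The enzyme level ranged from -0.37 to -0.11 and from -0.35 to -0.089, and was -0.31 after VCR on the log2(TPM + 0.1) scale. After RCM1 the levels ran from -0.30 to 0.05 and from -0.25 to 0.01, positive without m3. The cause of these shifts was not tested. No paired analysis was possible because the tumor numbers m1 to m12 are unique and no group shares one.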
